A study of Mus musculus with 24 samples.

Results

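The potassium channel genes of the mouse were followed in the entorhinal cortex after neurons were silenced. The members were all genes of the count table whose symbol begins with Kcn, that code for protein and that had 10 or more reads in at least 6 of the 24 libraries. Of 99 Kcn entries, 94 were protein-coding and 81 met the count rule, out of 55417 genes in the table. All 81 were among the 16954 genes tested. They comprised 28 pore subunits of voltage-gated channels, 9 modifier subunits, 14 auxiliary subunits, 7 subunits of calcium- or sodium-activated channels, 13 inward rectifiers and 10 members of the K2P leak family. These roles were given by the start of the symbol.

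Adult mice aged 2 to 4 months gave subdissected entorhinal cortex for 24 bulk RNA libraries, 6 from vehicle controls and 6 each from day 1, day 2 and day 3 after the GlyCl channel had been activated. All mice, vehicle included, had the genotype tg/tg from a cross of Nop-tTA Line S with TRE-GlyCl-YFP Line 9531. GlyCl is an engineered glycine-receptor chloride channel that silences neurons when activated, and the neuropsin (Nop) driver restricts it to part of the entorhinal neurons, so the tissue also holds neurons without it. Neither the activating ligand nor the collection time of vehicle tissue was given in the sources used here. Whether each library is a separate animal is not spelled out either, and if some are not, p-values reflect only library-to-library spread.

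Potassium channels let potassium flow out of cells and thereby set the resting potential, end the action potential and limit repetitive firing. Voltage-gated pores open on depolarization, modifier subunits are silent alone and tune other pores, and auxiliary subunits change gating or transport to the membrane. Inward rectifiers and K2P channels hold the membrane near rest, and in astrocytes they clear potassium released by active neurons.

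Libraries held 16.6 to 23.7 M reads, and a two-sided exact permutation test of the totals of each day against vehicle (6 against 6) gave p = 0.710, 0.359 and 0.961. EYFP, which marks the transgene, was at 112 ± 19.2 CPM (reads relative to a library's total count; mean ± SD, n = 6) in vehicle, 109.7 ± 20.6 at day 1 and 101.5 ± 10.9 at day 2. At day 3 it was at 61.9 ± 9.95 CPM, and its highest day 3 library, at 77.4 CPM, lay below the lowest vehicle library, at 93.7 CPM (log2 fold change -0.90 ± 0.11, edgeR adjusted p = 1.1e-05). Its part in the day 3 values of the members was not tested. Markers of superficial entorhinal neurons (Reln, Calb1, Klk8 and Cux2) summed to 410 to 477 CPM in every library, and 5 excitatory neuron markers to 5418 to 6168 CPM. The 4 superficial markers had log2 fold changes of -0.35 to 0.02 at day 1 and -0.38 to 0.06 at day 2. On both days 3 of the 4 were above 0, and 0 had an unadjusted edgeR p under 0.05. At day 3 their log2 fold changes were -0.11 to 0.05, with 1 above 0, 3 below 0 and 0 at an unadjusted edgeR p under 0.05. A marker of the choroid plexus set libraries apart: 8 of the 24 libraries held 562 to 1174 CPM of its marker Ttr and the other 16 held 8.28 to 25.9 CPM. The Ttr-rich libraries were vehicle library 5, day 1 libraries 2 and 4, day 2 libraries 4 and 6 and day 3 libraries 2, 3 and 6.

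Per kilobase of exon, the most abundant member in vehicle was Kcnab2, a beta subunit of the Kcna channels, at 86.5 ± 4.72 CPM per kb (SD, n = 6). The inward rectifiers Kcnj4 and Kcnj9, the latter a G-protein-gated subunit, followed at 69.7 ± 2.28 and 45.1 ± 1.62 CPM per kb. The modifier subunit Kcnf1 stood at 42.1 ± 2.34 and the auxiliary subunits Kcnip2 and Kcnip3, calcium-binding partners of Kcnd channels, at 40.2 ± 3.27 and 39.5 ± 2.30 CPM per kb. These 3 did not differ beyond their spread. Among voltage-gated pores Kcnc4, a fast-inactivating channel subunit, led with 39.6 ± 2.09 CPM per kb and Kcnh3 came next with 36.6 ± 1.83 CPM per kb, within each other's spread.

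By summed CPM per kb, voltage-gated pores made up 37.1% of the members' total in vehicle, inward rectifiers 20.8%, auxiliary subunits 20.3%, modifiers 9.64%, K2P channels 7.50% and calcium- or sodium-activated channels 4.64%. Levels spanned from 86.5 CPM per kb down to 0.118 CPM per kb for Kcnh8. At the bottom of the table Kcne2 had 10 or more reads in 8 libraries (834 reads over all 24), Kcnh8 in 11 (244 reads) and Kcnj13 in 13 (404 reads). Just below the rule lay Kcne3, with 10 or more reads in 4 libraries and 120 reads in all, and Kcnn4, the channel subunit of activated lymphocytes and microglia, in 1 library and 128 reads. The plot of vehicle levels by role shows that every class spans more than a factor of 10.

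**Figure D1:**
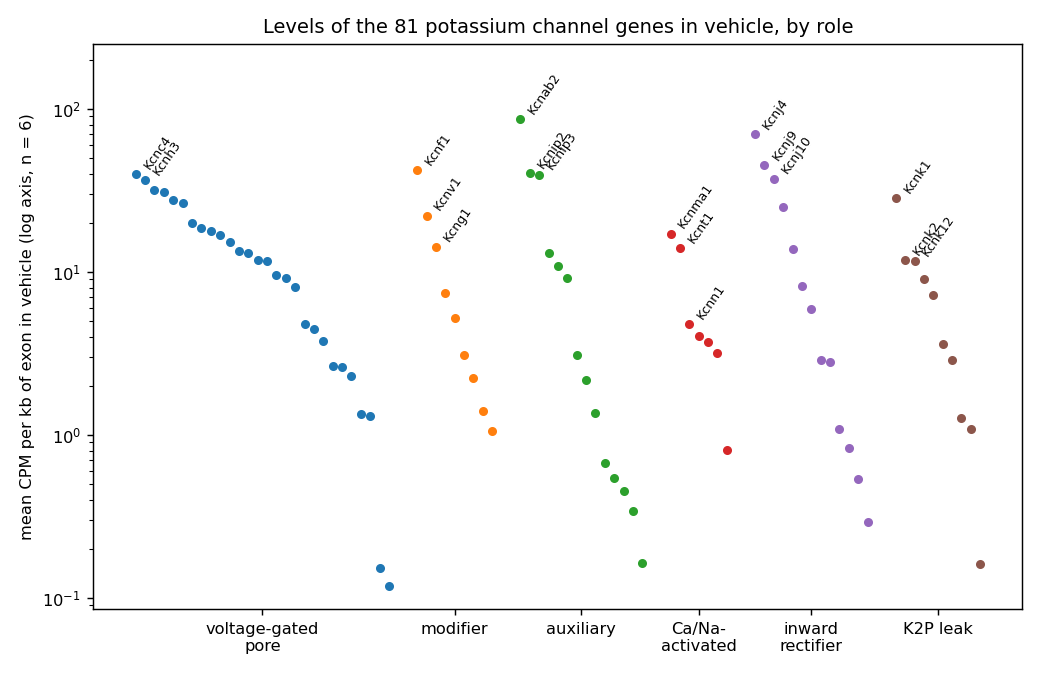
Mean level of the 81 members in vehicle (CPM per kb of exon, log axis, n = 6), grouped by role; each point is 1 gene and leading genes of each role are named. Kcnab2 is the highest at 86.5 CPM per kb and Kcnh8 the lowest at 0.118.

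Kcnh3 was the member that changed most clearly: it fell at day 1 and had risen again by day 3. It codes for a voltage-gated pore subunit of the ether-à-go-go-like branch that is found in forebrain neurons and dampens their excitability. In vehicle its lowest, median and highest levels were 197, 215 and 221 CPM. At day 1 they were 167, 171 and 202 CPM, at day 2 175, 191 and 203 CPM, and at day 3 183, 206 and 217 CPM.

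Day 1 was the lowest group, with 5 of 6 libraries below every vehicle library. Day 1 library 2 was the exception, so the groups overlapped. That library was Ttr-rich, and so was day 1 library 4, which was among the 5. The mean was 211 ± 10.5 CPM in vehicle and 176 ± 13.3 CPM at day 1 (SD, n = 6). The log2 fold change was -0.27 ± 0.05 (SE), with an adjusted p of 0.0171 in edgeR's quasi-likelihood test. Among all genes 0.0767% were called at day 1, 13 genes, of which 11 (0.0649%) were lower; Kcnh3 was the only called member of 81.

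At day 2 Kcnh3 was at 190 ± 12.2 CPM, a log2 fold change against vehicle of -0.16 ± 0.05 (edgeR adjusted p = 0.632). At day 3 it was at 204 ± 11.8 CPM, a log2 fold change against vehicle of -0.06 ± 0.05 (adjusted p = 0.999). Between day 1 and day 3 it rose by 0.21 ± 0.05 on the log2 scale (adjusted p = 0.0310), in a comparison in which 0.661% of all genes were called. The steps from day 1 to day 2 (0.11 ± 0.05) and from day 2 to day 3 (0.10 ± 0.05) were not called. A joint test of the 3 days gave an adjusted p of 0.00929 for Kcnh3, where 0.655% of all genes were called.

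The fall at day 1 was -0.35 ± 0.04 (edgeR adjusted p = 0.00155) and the rise from day 1 to day 3 was 0.33 ± 0.05 (adjusted p = 0.00286) without the 8 Ttr-rich libraries, an alternative chosen after the data were seen. Among those left out were day 1 library 2, the highest of its group, and vehicle library 5, at 198 CPM. Over all groups the median of Kcnh3 was 199.6 CPM in the Ttr-rich libraries and 198.6 CPM in the others. Mice whose animal numbers begin alike gave a day 1 difference of the same sign in 4 of 4 such sets, -0.40, -0.27, -0.25 and -0.32 on the log2 scale. These sets held 1 day 1 library and 1 vehicle library, apart from the set at -0.27, with 2 of each. Day 1 library 2 had no vehicle library with a like number, so it entered none of them. With the start of the number as a factor the fall was -0.30 ± 0.05 (edgeR adjusted p = 0.00758). In females alone the fall was -0.24. In males, where vehicle held only libraries 1 and 6, it was -0.32, and neither was called. The call was lost when vehicle library 1, 4 or 6 or day 1 library 1 was left out, with adjusted p up to 0.119. In the whole tissue, fewer cells of a type and less RNA per cell cannot be told apart. Excitatory neuron markers summed to 5663 to 6168 CPM in vehicle and 5418 to 6021 CPM at day 1, and 6 interneuron markers to 951 to 1028 and 875 to 985 CPM; their part in the result was not tested.

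Kcnip2, an auxiliary subunit that binds Kcnd channels of the A-type current, was called in the joint test of the 3 days (edgeR adjusted p = 0.0431) and in no single comparison. Its lowest, median and highest levels were 119, 143 and 152 CPM in vehicle and 115, 122 and 127 CPM at day 1. At day 2 they were 103, 128 and 132 CPM and at day 3 128, 134 and 140 CPM. Vehicle library 1 was the lowest of its group and lay among the day 1 libraries; the other 5 vehicle libraries were above all day 1 libraries. The log2 fold change was -0.21 ± 0.05 at day 1 (adjusted p = 0.0606), -0.17 ± 0.05 at day 2 (adjusted p = 0.411) and -0.07 ± 0.05 at day 3 (adjusted p = 0.999). All day 3 libraries were above all day 1 libraries, a log2 difference of 0.15 ± 0.05 (adjusted p = 0.189). With each of the 24 libraries left out in turn, the joint call of Kcnh3 held 24 times and that of Kcnip2 8 times, namely without vehicle library 1 or 3, day 1 library 4 or 6, day 2 library 1, 3 or 5 or day 3 library 2. The joint call of Kcnip2 was also lost without the Ttr-rich libraries (edgeR adjusted p = 0.274), with the start of the animal number as a factor (adjusted p = 0.0787), with upper-quartile factors, with a filter of 1 CPM and in each sex alone.

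Kcns1, a modifier subunit that pairs with other voltage-gated pores, had the largest fitted fall of the named members at day 1 and was not called. Its lowest, median and highest levels were 15.4, 20.4 and 23.6 CPM in vehicle and 14.5, 15.6 and 16.3 CPM at day 1, then 14.2, 16.0 and 21.9 CPM at day 2 and 16.8, 18.1 and 22 CPM at day 3. Only vehicle library 3 lay within the day 1 range. The log2 fold change was -0.39 ± 0.09 at day 1 (edgeR adjusted p = 0.116), -0.28 ± 0.09 at day 2 (adjusted p = 0.730) and -0.13 ± 0.09 at day 3 (adjusted p = 0.999). From day 1 to day 3 it was 0.26 ± 0.09 (adjusted p = 0.328), and the 2 groups did not overlap. DESeq2 called Kcns1, Kcnip2 and Kcnh3 at day 1, with adjusted p of 0.0259 for Kcns1 and 0.00628 for Kcnip2. Over all genes DESeq2 called 70 of 16954 in that comparison, where edgeR called 13.

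**Figure D2:**
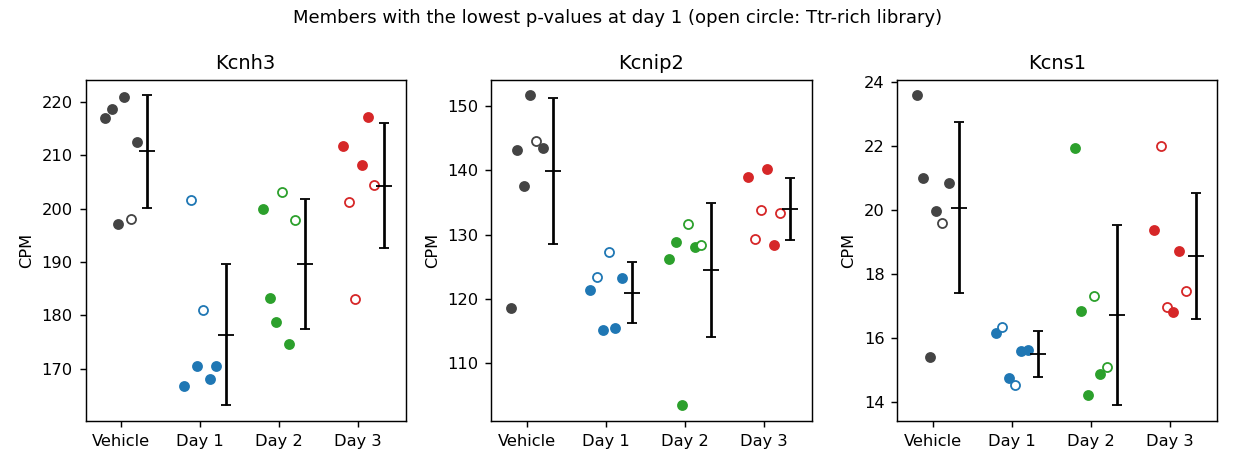
Levels of Kcnh3, Kcnip2 and Kcns1 (CPM, axes not starting at 0) in each of the 24 libraries by group; open circles are Ttr-rich libraries and bars are the mean with SD (n = 6). Each gene has its lowest mean at day 1, and the day 1 and vehicle ranges overlap in all 3.

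The set of RefSeq promoters used here held 82 promoters for 58 of the 81 members and none for Kcnh3. Those of Kcnip2 and Kcns1 are shown because these members had the lowest p-values at day 1 after Kcnh3. The 250 bases before the start site are given 5′ to 3′ on the gene's strand, in build GRCm38.p6, with the GC box (GGGCGG or CCGCCC) in capitals. The Kcnip2 window lies at chr19:45816064-45816313, minus strand, with 66.8% G or C, and that of Kcns1 at chr2:164171114-164171363, minus strand, with 63.2% G or C.
Kcnip2: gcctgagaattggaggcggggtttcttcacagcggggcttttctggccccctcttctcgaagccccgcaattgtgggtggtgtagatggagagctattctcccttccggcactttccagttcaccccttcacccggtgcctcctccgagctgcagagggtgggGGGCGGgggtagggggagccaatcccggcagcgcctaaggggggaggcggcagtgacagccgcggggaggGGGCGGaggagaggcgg
Kcns1: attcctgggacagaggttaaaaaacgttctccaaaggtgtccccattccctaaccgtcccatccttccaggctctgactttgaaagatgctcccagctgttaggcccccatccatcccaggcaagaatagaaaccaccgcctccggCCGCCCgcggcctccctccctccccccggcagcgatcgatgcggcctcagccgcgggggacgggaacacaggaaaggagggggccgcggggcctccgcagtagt
Kcnip2 has 2 GC boxes and Kcns1 has 1, read on both strands. Neither window holds the core of the EGR site (GTGGGCG, which can share bases with a GC box) or the core of the cyclic-AMP response element (TGACG). Among all 32851 promoters of this length, 32.7% held a GC box, 7.02% the EGR core and 17.8% the cyclic-AMP element; among the 82 member promoters it was 38, 7 and 14. These matches describe the letters only.

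On each day a larger share of the members than of all genes was lower at an unadjusted p under 0.05, with the widest gap at day 1 and the narrowest at day 3. At day 1, 15 of 81 members (18.5%) had an unadjusted p under 0.05 with a lower level, beside 4.3% of all genes, and 2 (2.47%) with a higher level, beside 2.95%. At day 2 it was 9 lower (11.1%, beside 2.58%) and 2 higher (beside 2.64%), and at day 3 it was 3 lower (3.70%, beside 2.15%) and 0 higher (beside 3.53%). The median log2 fold change of the members was -0.03, -0.02 and -0.03 on the 3 days, where that of all genes was 0.00 on each, and 32, 32 and 23 of 81 members lay above 0, beside 50.6%, 49.5% and 48.3% of all genes. Of the 6 interneuron markers, 3, 4 and 3 were lower at an unadjusted p under 0.05 on days 1, 2 and 3, with median log2 fold changes of -0.14, -0.13 and -0.09, and of the 5 excitatory neuron markers 2, 2 and 0 were lower. Their part in the members' shares was not tested. The members were chosen with results of these data known, so these shares describe the list and no test is attached to them. The 3 days share their vehicle libraries.

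The counts called by the edgeR test at day 2 and day 3 against vehicle were 0 of 81, in comparisons in which 0.059% and 0.625% of all genes were called. DESeq2 and limma voom also called 0 members. Over all genes they called 18 and 7 at day 2 and 129 and 95 at day 3. From day 1 to day 2 and from day 2 to day 3 the count was 0 as well (background 0.0118% and 0.142%). DESeq2 and limma voom called 0 members too. Over all genes they called 2 and 1 from day 1 to day 2, and 39 and 12 from day 2 to day 3. At an unadjusted p under 0.05 there were 4 members higher and 0 lower from day 1 to day 2 (2.36% and 1.89% of all genes), and 4 higher and 3 lower from day 2 to day 3 (2.95% and 2.07%). A test of whether a day's effect differed between the sexes called 0 members and 0 genes, with 2 members at an unadjusted p under 0.05 (3.45% of all genes). No member had all libraries of a day above or below all vehicle libraries, where 0.36%, 0.26% and 0.702% of all genes lay above and 0.271%, 0.0354% and 0.0472% below on days 1, 2 and 3. Between day 1 and day 3 that held for Kcnip2 and Kcns1, higher (0.608% of all genes), and for Kcnc1, lower (0.248%).

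**Figure D3:**
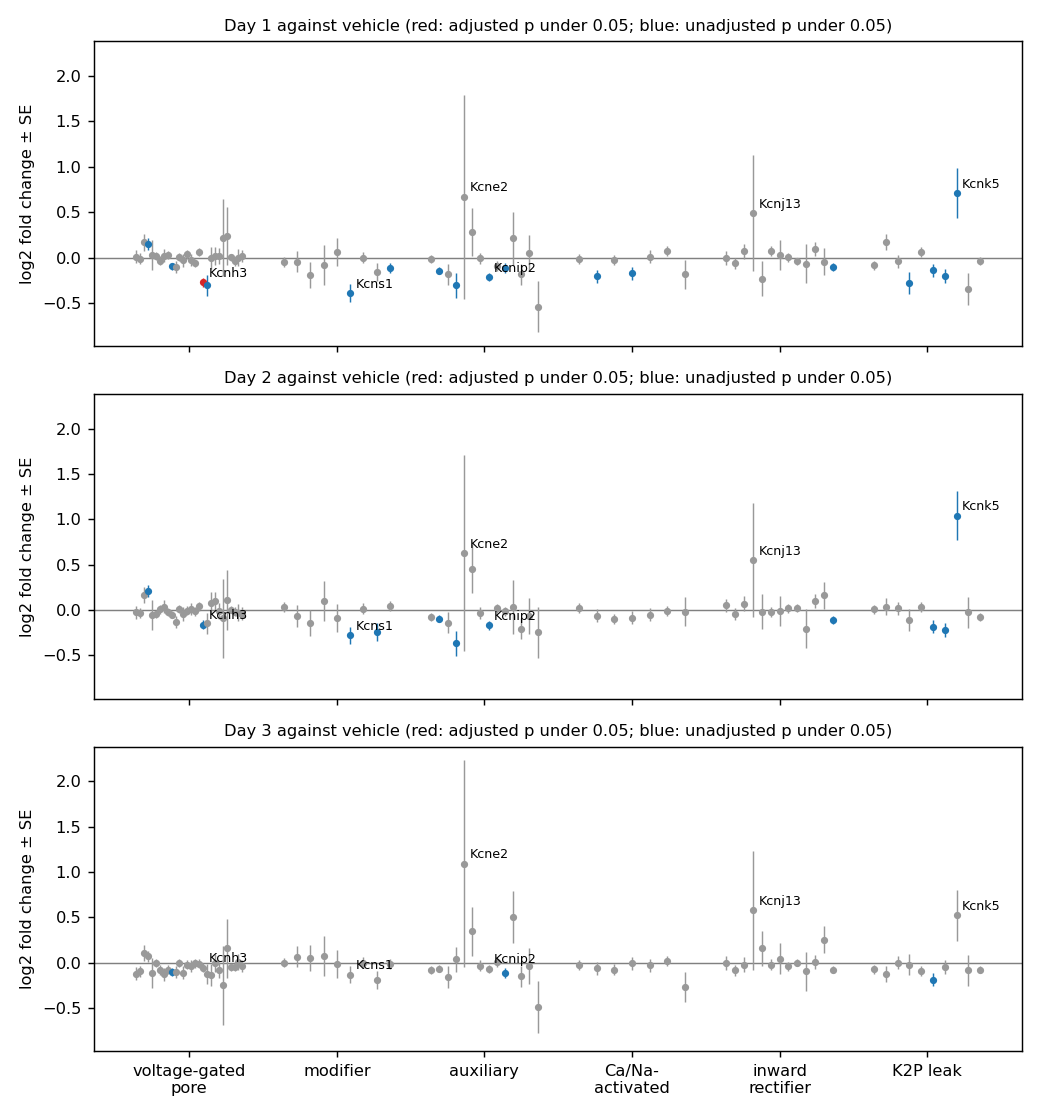
Log2 fold change against vehicle with SE for the 81 members on each day, by role; red marks an adjusted p under 0.05 and blue an unadjusted p under 0.05. Kcnh3 at day 1 is the only red point, and the wide bars belong to genes with few reads such as Kcne2 and Kcnj13.

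Among the 28 voltage-gated pore subunits, the Kcnh family of 8 held the called gene. Kcnh4, the close relative of Kcnh3, had lowest, median and highest levels of 12.8, 14.6 and 17.5 CPM in vehicle and 9.67, 11.8 and 16.9 CPM at day 1. These ranges overlapped, and the log2 fold change was -0.31 ± 0.11 (edgeR adjusted p = 0.468). The remaining 6 were not called: Kcnh1 was at 98.3 ± 8.54 CPM in vehicle and 95.7 ± 3.32 CPM at day 1, Kcnh7 at 123 ± 21.1 and 128 ± 9.88 CPM, and Kcnh2, the cardiac delayed rectifier subunit, at 46.4 ± 2.56 and 48.9 ± 2.97 CPM. Kcnh5 was at 18.1 ± 3.65 and 18.6 ± 1.49 CPM, Kcnh6 at 4.64 ± 0.43 and 4.73 ± 0.49 CPM and Kcnh8 at 0.539 ± 0.284 and 0.617 ± 0.281 CPM. At day 3 all 8 had a fitted log2 fold change below 0 (median -0.07), and 0 were called. With these 8 included, 23 of the 28 voltage-gated pores and 58 of the 81 members lay below 0 at day 3, beside 8767 of 16954 genes.

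**Figure D4:**
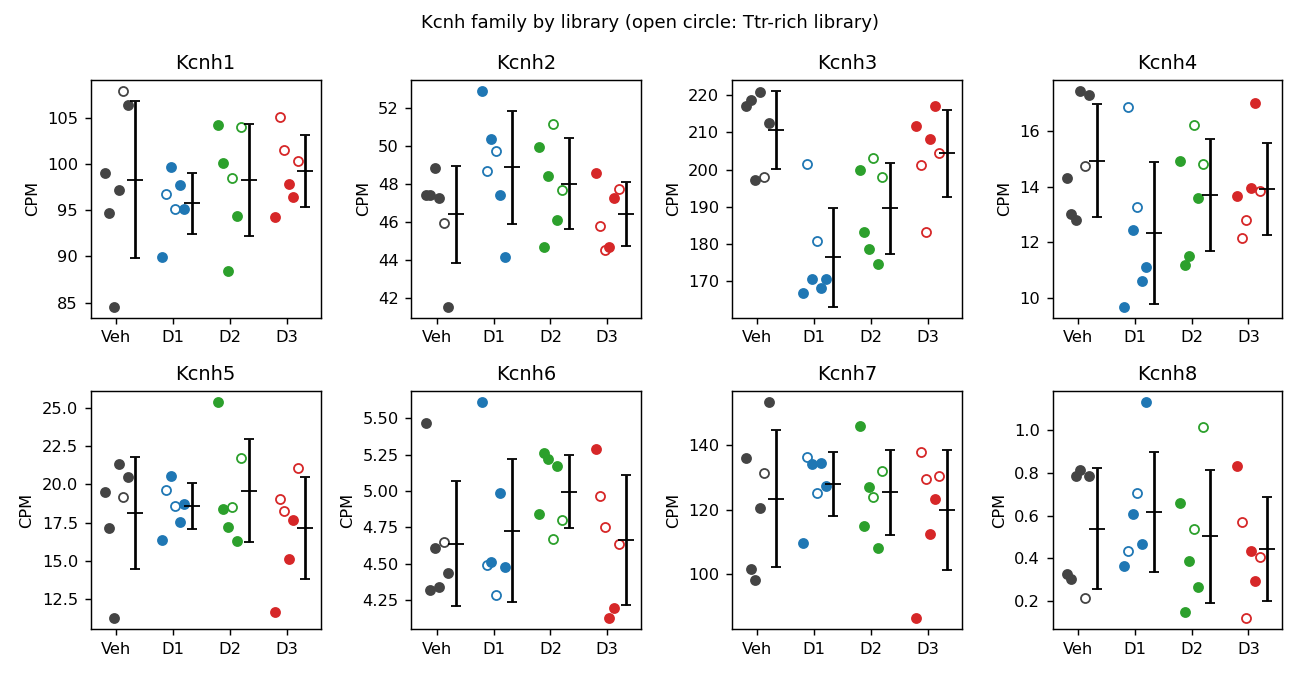
Levels of the 8 Kcnh genes (CPM, axes not starting at 0) in each library for vehicle (Veh) and days 1 to 3 (D1 to D3); open circles are Ttr-rich libraries and bars the mean with SD (n = 6). Kcnh1, Kcnh3 and Kcnh4 have their lowest mean at day 1, where Kcnh2, Kcnh7 and Kcnh8 have their highest; Kcnh3 is the called gene.

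Kcna2, the dendrotoxin-sensitive axonal channel and one of the pores with the most reads, was not called on any day. It was at 315 ± 24.9 CPM in vehicle and 300.3 ± 27.7 to 317 ± 9.80 CPM on the days. Of the pores with higher values, Kcna4, which carries a fast-inactivating current, was at 23 ± 1.03 CPM in vehicle, 25.7 ± 2.25 at day 1 and 26.7 ± 2.31 CPM at day 2. Its log2 fold change was 0.15 ± 0.06 at day 1 and 0.21 ± 0.06 at day 2 (edgeR adjusted p = 0.582 and 0.629). Kcna3, a channel also of lymphocytes and microglia, was at 17.5 ± 2.04 CPM in vehicle and 19.8 ± 1.77, 19.8 ± 2.48 and 19.1 ± 2.04 CPM on the days, with log2 fold changes of 0.17, 0.17 and 0.11 (each ± 0.09).

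Kcnc1 and Kcnc2, which let fast-spiking interneurons fire at high rates, were not called. Kcnc2 was at 133 ± 2.66 CPM in vehicle, 126 ± 4.54 at day 1 and 125 ± 4.73 CPM at day 3, log2 fold changes of -0.10 ± 0.04 on both days (edgeR adjusted p = 0.572 and 0.642). Kcnc1 was at 263 ± 13.9 CPM in vehicle, 271 ± 8.98 at day 1 and 252 ± 7.54 CPM at day 3. Its 6 day 3 libraries, at 238 to 258 CPM, lay below the 6 day 1 libraries, at 259 to 279 CPM (log2 difference -0.10 ± 0.04, adjusted p = 0.485). The 6 interneuron markers summed to 893 to 945 CPM at day 2 and 892 to 977 CPM at day 3, beside 951 to 1028 CPM in vehicle, and 0 of the 6 were called on any day, though 4 were lower at an unadjusted p under 0.05 at day 2 and 3 at day 3; their part in these values was not tested.

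Of the 9 modifier subunits, 8 had a fitted log2 fold change below 0 at day 1 (median -0.08) and 5 at day 3 (median 0.00). Kcnf1 was at 202 ± 11.2 CPM in vehicle and 198 ± 17.5 to 208 ± 9.51 CPM on the days. Kcnv1, silent on its own, was at 101 ± 5.27 CPM in vehicle, 94.8 ± 7.18 at day 1 and 106 ± 8.98 CPM at day 2, and its step from day 1 to day 2 of 0.16 ± 0.06 was not called (edgeR adjusted p = 1.00). Kcns3 was not called at day 2 (-0.24 ± 0.10, adjusted p = 0.859) and day 3 (-0.19 ± 0.10, adjusted p = 0.936), from 7.10 ± 0.91 CPM in vehicle to 6.13 ± 0.79 and 6.37 ± 0.41 CPM. Kcng3 at day 3 stood at 3.74 ± 0.87 CPM beside 3.55 ± 1.24 CPM (0.07 ± 0.22).

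Of the 14 auxiliary subunits, 10 had a log2 fold change below 0 at day 1 (median -0.10), 10 at day 2 and 9 at day 3. Kcnab2, the most abundant, had lowest, median and highest levels of 452, 486 and 510.2 CPM in vehicle and 425, 440 and 472 CPM at day 1. The ranges overlapped, and the log2 fold change was -0.14 ± 0.04 (edgeR adjusted p = 0.205). Kcnip3 was at 140.0 ± 8.17 CPM in vehicle and 133 ± 5.76, 143 ± 6.92 and 142 ± 13.6 CPM on the days. Kcne1l, a small single-span subunit, was at 3.36 ± 0.69 CPM in vehicle, 2.7 ± 0.42 at day 1, 2.56 ± 0.32 at day 2 and 3.40 ± 0.55 CPM at day 3. Its log2 fold change was -0.31 ± 0.14 at day 1, -0.37 ± 0.14 at day 2 and 0.41 ± 0.14 from day 2 to day 3 (adjusted p = 0.640, 0.778 and 0.797). Kcnab3 was at 37.2 ± 5.61 CPM in vehicle and 34.1 ± 5.44 CPM at day 3 (-0.16 ± 0.12).

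Calcium- and sodium-activated channels follow firing, since calcium and sodium enter with each spike. Kcnma1, the large-conductance calcium-activated pore, was at 292 ± 17.7 CPM in vehicle and 293 ± 19.2 to 301 ± 25.7 CPM on the days, and Kcnt1, the sodium-activated pore, at 133 ± 10.6 and 130.2 ± 14.5 to 136 ± 17.2 CPM. No small-conductance subunit was called. Kcnn3 went from 39.1 ± 2.58 CPM in vehicle to 35.0 ± 3.29 CPM (-0.17 ± 0.07, edgeR adjusted p = 0.559) and was at 39.2 ± 3.85 CPM at day 3, 0.17 ± 0.07 above day 1 (adjusted p = 0.502). Kcnn1, named after its values were seen, was at 21.9 ± 1.30 CPM in vehicle and 19.1 ± 1.36 CPM at day 1 (-0.21 ± 0.07, adjusted p = 0.409). Kcnu1, best known from sperm, was placed in this class by its symbol and not by its gating. Its level was 3.00 ± 0.52 CPM in vehicle and 2.46 ± 0.52 CPM at day 3 (-0.27 ± 0.16, edgeR adjusted p = 0.996).

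The inward rectifiers included genes of glia and vessels. Kcnj10, the main potassium-clearing channel of astrocytes, was at 202 ± 25.5 CPM in vehicle and 201 ± 12.5 to 208 ± 16.0 CPM on the days, and its partner Kcnj16 at 32 ± 1.66 and 31.7 ± 1.66 to 33.9 ± 2.52 CPM. Over the same days the reactive astrocyte markers Gfap, Vim and Serpina3n summed to 235 to 311 CPM in vehicle and 444 to 562 CPM at day 3. Their log2 fold changes at day 3 ranged from 0.18 to 1.12, with a median of 0.18, and 1 of the 3 was called. Kcnj4 and Kcnj9 were at 150.0 ± 4.91 and 194 ± 6.95 CPM in vehicle and at 148 ± 7.17 and 182 ± 11 CPM at day 1. Kcnj6, a G-protein-gated subunit, was at 21.4 ± 2.58 CPM in vehicle and 23.2 ± 1.49 CPM at day 1 (0.09 ± 0.08). Kcnj8, the ATP-sensitive pore of pericytes, was at 2.77 ± 0.49 CPM in vehicle, 3.05 ± 0.19 at day 2 and 3.26 ± 0.84 CPM at day 3 (0.16 ± 0.15 and 0.25 ± 0.15), and Kcnj14 at 2.25 ± 0.59 and 2.50 ± 0.70 CPM at day 3 (0.16 ± 0.19); none was called.

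In the K2P leak family, 7 of 10 genes had a log2 fold change below 0 at day 1. Kcnk9 was at 111 ± 7.01 CPM in vehicle and 107 ± 5.74 to 111 ± 3.64 CPM on the days, and Kcnk1 at 63.2 ± 4.00 and 60.5 ± 2.77 to 64.2 ± 5.19 CPM. Kcnk4, a mechanosensitive and arachidonic-acid-sensitive channel, was at 16.1 ± 1.65 CPM in vehicle, 14.2 ± 0.84 at day 1 and 14 ± 1.17 CPM at day 2 (-0.20 ± 0.08 and -0.22 ± 0.08, edgeR adjusted p = 0.471 and 0.743); 13.1% of its exon length overlaps Catsperz on the same strand, so reads may be shared. Kcnk3, an acid-sensitive channel, was at 28.6 ± 1.30 CPM in vehicle and 25.4 ± 1.90 CPM at day 3 (-0.19 ± 0.07, adjusted p = 0.565). Between day 1 and day 3 Kcnk10 differed by -0.29 ± 0.09 and Kcnk2 by -0.15 ± 0.05 (adjusted p = 0.168 and 0.335), and at day 1 Kcnk10 stood 0.17 ± 0.09 above vehicle.

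Kcnk13 and Kcnk6 are carried by microglia. Kcnk13 was at 9.0 ± 1.54 CPM in vehicle, 7.40 ± 1.58 at day 1 and 8.82 ± 1.21 CPM at day 3, a log2 fold change of -0.28 ± 0.12 at day 1 and 0.26 ± 0.12 from day 1 to day 3 (edgeR adjusted p = 0.575 and 0.537). Kcnk6 was at 4.49 ± 0.69 CPM in vehicle and 3.59 ± 0.59 CPM at day 1 (-0.35 ± 0.17, adjusted p = 0.697). The 7 microglia markers summed to 274 to 317 CPM in vehicle, 279 to 321 CPM at day 1 and 312 to 389 CPM at day 3, when 2 of 7 were called higher; their part in these values was not tested.

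Kcnk5, an alkaline-activated leak channel with few reads (65 in vehicle and 127 at day 2, over 6 libraries each), had the largest difference of any member at day 2 and is named after its values were seen. Its lowest, median and highest levels were 0.281, 0.545 and 0.864 CPM in vehicle, 0.385, 0.856 and 1.40 CPM at day 1, and 0.826, 1.14 and 1.44 CPM at day 2. Vehicle and day 2 overlapped by their extremes alone. The log2 fold change was 0.71 ± 0.27 at day 1 and 1.04 ± 0.27 at day 2 (edgeR adjusted p = 0.502 and 0.369).

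Kcne2 and Kcnj13 differed between libraries rather than between groups. Both are channel subunits of the choroid plexus epithelium, which makes cerebrospinal fluid. Kcne2 stood at 2.95 to 6.35 CPM in the 8 Ttr-rich libraries and 0 to 0.438 CPM in the other 16, and its groups overlapped throughout: 0 to 6.27 CPM in vehicle and 0.0987 to 5.81 CPM at day 3. Kcnj13 stood at 0.842 to 2.43 CPM in the Ttr-rich libraries and 0.109 to 0.814 CPM in the others. The ratio of medians was 42.9 for Kcne2 and 5.85 for Kcnj13, a description of libraries sorted by another gene, and no other member had every Ttr-rich library above every other library.

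Against vehicle, which has 1 Ttr-rich library of 6, the log2 fold change of Kcne2 was 0.67 ± 1.12, 0.63 ± 1.08 and 1.09 ± 1.14 on days 1, 2 and 3, and that of Kcnj13 was 0.49 ± 0.64, 0.55 ± 0.63 and 0.58 ± 0.65. Without that library, vehicle library 5, the values were 3.32 ± 1.46, 3.41 ± 1.46 and 3.67 ± 1.44 for Kcne2 and 1.47 ± 0.67, 1.55 ± 0.67 and 1.54 ± 0.68 for Kcnj13, none of them called. The 12 choroid plexus markers had median log2 fold changes of 0.64, 0.72 and 1.10 on the same days, and 0 of 12 were called. Their summed level was 998 to 1923 CPM in the Ttr-rich libraries and 146 to 219 CPM in the others. Of the exon length of Kcnj13, 49.1% overlaps Gigyf2 on the opposite strand, and whether counting used strand was not given in the sources used here, so its low values may hold reads of that gene.

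**Figure D5:**
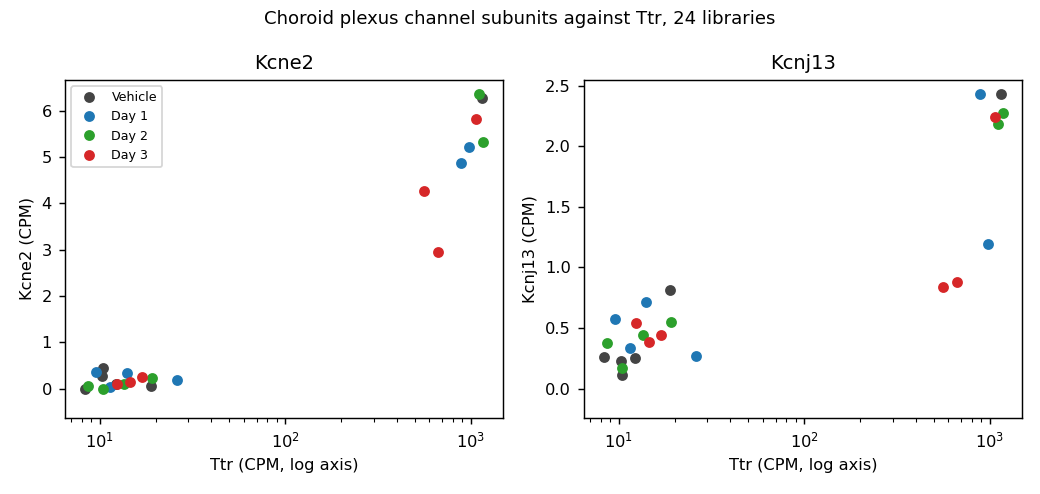
Levels of Kcne2 and Kcnj13 (CPM) against Ttr (CPM, log axis) in the 24 libraries, coloured by group. The 8 libraries at 562 to 1174 CPM of Ttr hold the highest Kcne2 values, 2.95 to 6.35 CPM, and come from all 4 groups.

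Partner proteins of these channels, 25 genes such as Dpp6 and Dpp10 for Kcnd, Lgi1, Adam22 and Cntnap2 for axonal Kcna, and Abcc8 and Abcc9 for ATP-sensitive channels, gave 24 tested genes. None was called on any day by edgeR, and the median log2 fold change was -0.01, 0.00 and -0.03. At an unadjusted edgeR p under 0.05 there was 1 at day 1, Lgi3, higher (4.17%, beside 2.95% of all genes). There were 0 at day 2 and 1 at day 3, Lgi2, lower (4.17%, beside 2.15% of all genes). Both are named after their values were seen.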

How the data were processed

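The authors deposited raw counts of reads for each gene, as whole numbers, in one table of 24 RNA-seq libraries in 4 groups of 6. Per the submitters' processing notes, fastp 0.23.1, STAR 2.7.9a and DESeq2 1.32.0 were used with mm39; counter, annotation and strand use were not given in the sources used here. Groups came from the treatment label, and replicate numbers follow accession order.

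Counts were tested with edgeR 4.0.16 in R 4.3.3 (quasi-likelihood test, two-sided, trimmed mean of M values, filterByExpr with minimum count 10 and minimum total 15) with group and sex over all 24 libraries, n = 6 per group. The filter kept 16954 genes, and the biological coefficient of variation was 8.52%. Benjamini-Hochberg adjustment ran over every gene tested in a comparison, with calls at an adjusted p under 0.05. CPM are counts scaled to the library total. Exon lengths are from an annotation of GRCm38, another build than the counts, so per-kilobase levels are approximate and reads of overlapping genes cannot be told apart. Promoters are from RefSeq.

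The members and lists were chosen with earlier results of these data known. Named were Kcnh3, every called member, the 4 largest rises and falls per day (mean log2 CPM 1 or more), the 3 members with most reads per role, the Kcnh family and members known from other cell types. Beside the marker lists given with results, lists for astrocytes, oligodendrocytes, their precursors, endothelium, pericytes with smooth muscle, and blood had 0 genes called on any day. Pairs of libraries within a group differed by more than sampling noise (chi-square per degree of freedom 3.94 to 13.8 over 60 pairs).

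The edgeR step was tested on simulated counts of 16759 genes for day 1 against vehicle: the share of changed genes found was 35% at 1.2-fold, 69.8% at 1.5-fold, 84.4% at 2-fold and 100% at 4-fold, with 2.58% of 155 calls false. The data gave 13 calls at day 1. The adjustment is stricter with fewer calls, so the shares found in the data may be lower. Alternatives were other normalization factors and filters, DESeq2 1.42.0 and limma 3.58.1 voom, no sex term, the start of the animal number as a factor, only the groups compared, each sex alone, each library left out in turn and, added after the data were seen, no Ttr-rich libraries. Some members are not reported here by name.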

Additional observations from a re-analysis of the deposited data

Results flagged for a closer look

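In groups of 6, a library was singled out when its distance to the nearest other library as a share of the group's range exceeded Dixon's critical value for 6 samples. Of 180 groups of 45 named members, 18 (10%) had such a library, and chance alone gives about 1 in 20. The values are in CPM.

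The choroid plexus members account for 3: Kcne2 at 6.27 and Kcnj13 at 2.43 in vehicle library 5, and Kcnj13 at 2.24 in day 3 library 6, all Ttr-rich. Day 2 library 3 was singled out for 2 members, low for Kcnip2 (103, the others 126 to 132) and high for Kcnma1 (352, the others 286 to 302).

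Vehicle library 3 was high for Kcnf1 (223) and Kcng1 (88.8), vehicle library 1 for Kcnh6 (5.47) and vehicle library 6 for Kcnk2 (65.2). Day 1 library 1 was high for Kcnk2 (66.6), and day 1 library 2, a Ttr-rich library, for Kcng3 (5.14) and Kcnk3 (30.6). Day 1 library 3 was low for Kcnj8 (1.65), day 2 library 1 high for Kcnab3 (52.1) and day 2 library 6 low for Kcnj6 (19.9). At day 3, library 1 was low for Kcnj6 (17.2), library 6 low for Kcnc1 (238) and library 5 high for Kcnh4 (17). Kcnh3 and Kcns1 had no such library in any group.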

How the results depend on the processing

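Kcnh3 kept its direction in all 13 alternatives and with each of 24 libraries left out, in every comparison. Its day 1 call held in 11 of 13 alternatives, with an edgeR adjusted p of up to 0.693, in males alone. It held with 20 of 24 libraries left out (edgeR adjusted p 0.00536 to 0.119). Its rise from day 1 to day 3 was called in 10 of 13 alternatives, with an edgeR adjusted p of up to 0.536, in males alone. That rise was called with 16 of 24 libraries left out (edgeR adjusted p up to 0.113). The latter call was lost without day 1 library 1, 3, 5 or 6 or day 3 library 1, 4, 5 or 6. Kcnip2 and Kcns1 were each called at day 1 in 3 of 13 alternatives: DESeq2, no filter and the animal number as a factor. The number of members called at day 1 was thus 3 in those alternatives. They called 70 of 16954, 159 of 36066 and 30 of 17886 genes, in that order. The number was 0 in females (2 of 16961 genes called) and 0 in males (0 of 17135). With a library left out it was 0 to 2 (4 to 27 genes). Without vehicle library 1 the single call was Kcnip2 in place of Kcnh3. For day 1 to day 3 the number of members was 0 with only the groups compared (105 of 16632 genes called). It was 0 in females (10 of 16961 genes), 0 in males (13 of 17135) and 0 to 1 with a library left out (46 to 121 genes). In the joint test DESeq2 called Kcns1 as well as Kcnh3 and Kcnip2 (adjusted p = 0.0295, 9.6e-05 and 0.00329), among 212 of 16954 genes. The joint count of members was 1 with upper-quartile factors, a filter of 1 CPM, the animal number and no Ttr-rich libraries. Over all genes these called 107 of 16954, 91 of 15158, 83 of 17886 and 59 of 17062. The joint count was 4 without a filter (433 of 36066 genes called). It was 0 in females (25 of 16961 genes), 0 in males (13 of 17135) and 1 to 3 with a library left out (72 to 135 genes). At day 3 against vehicle 1 member, Kcne2, was called without a filter, among 217 of 36066 genes. Each sex alone has fewer libraries; the cause of the other differences was not tested. The labels give the groups no shared replicate numbers and do not say what the start of the animal number stands for, so the fit with it as a factor was the only blocked fit.

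Of 159 log2 fold changes of members examined, 92 kept one sign in every alternative and 60 changed sign in an alternative other than leaving out a library, all of main size up to 0.25 apart from Kcne2 and Kcnj13. Among those in the report, signs changed in females at day 3 for Kcna3 (-0.032), Kcnab3 (0.072), Kcng3 (-0.054), Kcns1 (0.020), Kcne2 (-0.65) and Kcnj13 (-0.79), and at day 1 for Kcne2 (-0.030). They changed for Kcng3 at day 3 without the Ttr-rich libraries (-0.064) and for Kcne2 at day 2 with the animal number (-0.10) and in males (-1.92). With a library left out, Kcne2 ranged from -0.16 to 3.32 at day 1, -0.17 to 3.41 at day 2 and 0.50 to 3.67 at day 3, Kcnj13 from -0.043 to 1.47 at day 1 and -0.020 to 1.54 at day 3, and Kcng3 from -0.040 to 0.22 at day 3. Depth limits the members with few reads.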

Other observations

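After group and sex were removed, the log2 CPM of Kcnh3 and Kcns1 correlated over the 24 libraries with Pearson's r of 0.462 (permutation p = 0.0222, adjusted 0.133) and Spearman's rho of 0.490 (permutation p = 0.0163, adjusted 0.0977), and r was 0.452 without the 2 farthest libraries. Of 6 relations computed among Kcnh3, Kcnip2, Kcns1 and Egr3, none passed the adjustment. Kcnh3 and Kcnip2, the 2 members called jointly, gave an r of 0.07 (permutation p = 0.752, adjusted 0.844) and a rho of 0.132 (permutation p = 0.537, adjusted 0.806).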
